A study of Mus musculus with 16 samples.

Results

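Pre-mRNA splicing is carried out by the spliceosome, whose small nuclear ribonucleoproteins carry a shared ring of Sm proteins and whose U2 particle recognises the branch point through the SF3A and SF3B proteins. SR proteins mostly help an exon to be included, hnRNP proteins often oppose them, and a smaller group of RNA-binding regulators is made in particular tissues and sets which alternative exons are used there. The nervous system is the best known site of such tissue-restricted regulators, among them the Nova, Celf, Rbfox and Ptbp2 proteins. The genes described here were chosen by symbol, with earlier results of these data known. The symbols are those of SR proteins (Srsf, the older name Sfrs, Tra2), hnRNP proteins (Hnrnp, Hnrp, Ptbp), Sm and snRNP proteins (Snrp) and U2 proteins (Sf3a, Sf3b). The Rbm, Rbfox, Nova, Celf, Mbnl and Khdrbs families were also taken. The symbols matched 113 of 15876 genes. They carried 110 distinct symbols, because Nova1, Hnrnpr and Rbm15b each stand on 2 Ensembl identifiers, which were kept apart.

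The genes were separated by role into 21 tissue-restricted regulators, 18 core snRNP and U2 genes, 14 SR protein genes, 23 hnRNP genes, 35 other Rbm genes and 2 broadly expressed regulators (Celf1 and Khdrbs1). Snrpn, which encodes the neuronal Sm protein, was placed with the tissue-restricted genes, as were Ptbp2, Rbms1, Rbms3 and the measured genes Rbm20, Rbm24, Rbm38 and Rbm47. Of the tissue-restricted list Rbfox1, Rbm9, Celf6, Khdrbs2, Rbm11, Rbm44 and Rbm46 were not among the 15876 genes. These role lists, too, were written with earlier results of these data known.

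The tissues were dissected from CD1 mouse embryos of 3 stages (E8.5, E9.5 or E10.5, with E for embryonic day), for which the labels name no mutation or treatment, and each region and stage has 1 RNA-seq library, 16 in all. Neural epithelium gave 6 libraries: caudal brain, floor plate and non-floor plate at E8.5, and 3 at E10.5, one from the lateral prominence, one titled central and one titled dorsal control. Mesenchymal tissue gave 8: E8.5 mesoderm, E9.5 cranial mesenchyme, mandibular arch and maxillary arch, and at E10.5 the lateral nasal prominence, mandibular arch, maxillary arch and a library labelled medial nasal prominence. Surface epithelium gave 2, the E9.5 epidermal ectoderm and the E10.5 olfactory pit. Libraries of 1 class are different regions, so every p-value below measures the spread between regions and not between repeats. How many embryos stood behind each library was not given in the sources used here.

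Each deposited value of a gene is a ratio to its own median over the 16 libraries, so libraries can be compared for 1 gene, but genes cannot be compared with each other. A relative level, used below unless stated, is that ratio divided by the median ratio of the library over the 7082 genes whose lowest value is not shared by 2 libraries. Low values had been raised to a floor before the division, and 19 of the 113 genes had such a shared floor. A difference is given on the log2 scale of relative levels, and a gene is said to rise or fall, or to be higher or lower in a class, when the Benjamini-Hochberg adjusted p of limma over all genes tested was under 0.05. In bulk tissue fewer expressing cells and less RNA per cell cannot be told apart.

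Some libraries stood apart. The library labelled medial nasal prominence had 7 of 8 facial mesenchyme markers at their floor and 0 of 6 neural progenitor markers at theirs, against its label, so results that use it are given with and without it. The samples titled central and dorsal control have column headers that name each other's region; both are neural, so no class comparison depends on it. In the other 6 E10.5 libraries apart from the olfactory pit, 63.8 to 81.5% of the 8794 genes with a shared lowest value were at that floor, against 50.6 to 59.1% in the remaining 10 libraries. Genes with transcripts under 1000 nucleotides were low in the E10.5 neural libraries, at a log2 median of -0.94 to -0.66 against genes over 4000 nucleotides, and high in the E8.5 neural libraries, at 0.10 to 0.68.

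The role lists were written with earlier results of these data known, so their spans describe the lists and support no claim about them. Genes placed in the tissue-restricted list had the widest median span. The median gene of that list spanned 3.16 log2 units from its lowest to its highest library, against 1.70 over all 15876 genes. The corresponding medians were 2.01 for core snRNP and U2 genes, 1.42 for other Rbm genes, 1.30 for SR genes and 1.29 for hnRNP genes, and no test was made of these spans. The widest span among all members was that of Rbms1, at 5.14, followed by Celf3 at 4.84, Snrpn at 4.80 and Celf2 at 4.69. The narrowest spans were those of Rbm22 (0.61), the U2 genes Sf3b1 (0.61) and Sf3b2 (0.66), Tra2b (0.72), Rbm34 (0.75), Rbm27 (0.77), the hnRNP gene Hnrpll (0.78) and Srsf1 (0.80). The third narrowest of the core list was the U2 gene Snrpb2 (0.94) and of the SR list Tra2a (1.04). The heat map of the tissue-restricted genes shows where each was high.

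**Figure D1:**
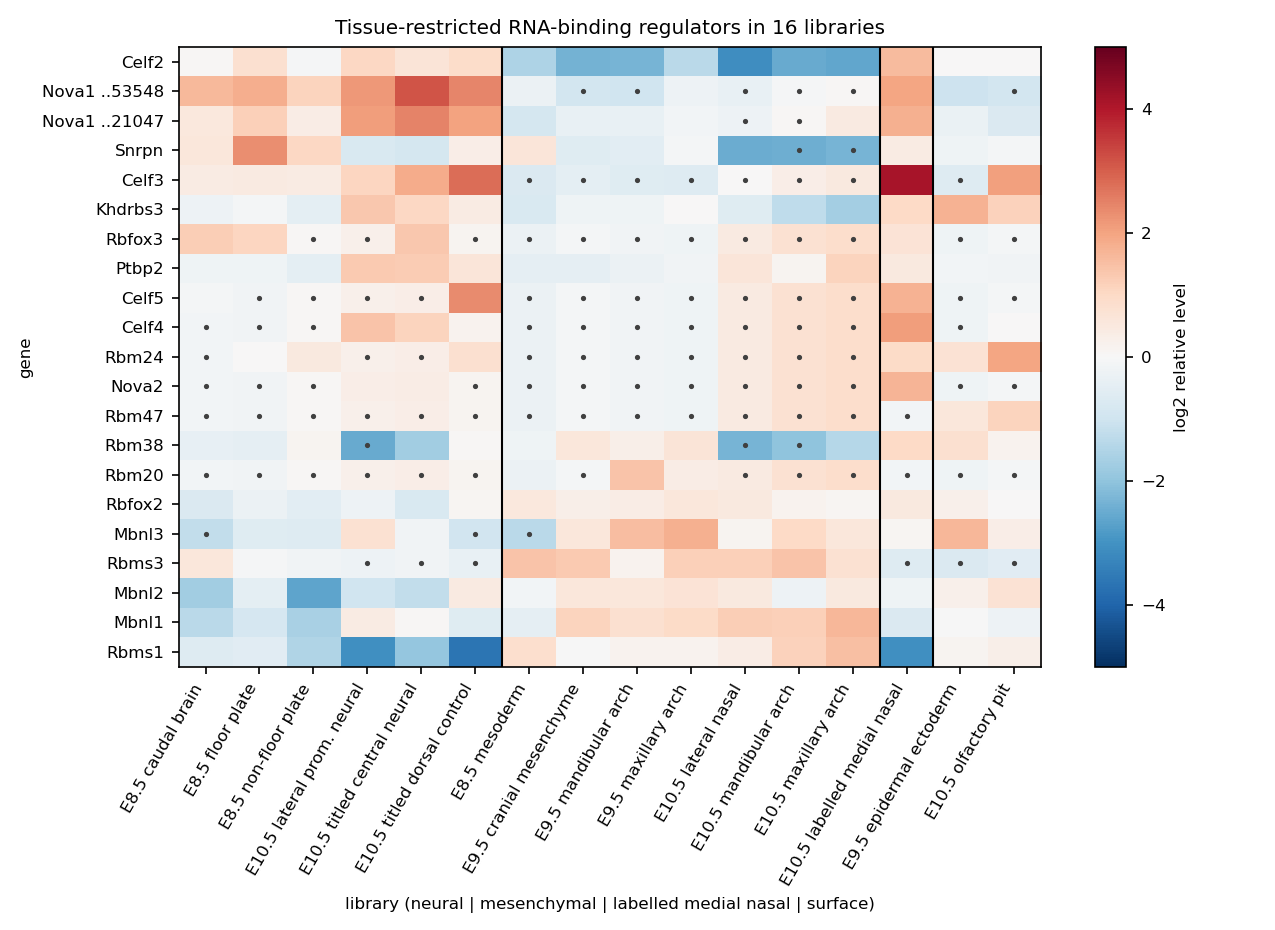
Log2 relative level of the 21 tissue-restricted genes (vertical axis, sorted by neural minus mesenchymal difference) in the 16 libraries (horizontal axis), blue below and red above the median gene; a dot marks a value at the gene's shared floor. Both Nova1 rows and Celf2 were red or pale in neural libraries and Rbms1 was blue in all 6, and the library labelled medial nasal prominence followed the neural pattern for these genes.

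Nova1, a neuronal splicing regulator, was the only member gene higher in neural than in mesenchymal tissue when all libraries were used. For the identifier ENSMUSG00000053548 the relative level was 3.11 in E8.5 caudal brain, 3.51 in floor plate and 2.14 in non-floor plate, and 4.46, 8.79 and 5.40 in the E10.5 lateral prominence, titled central and titled dorsal control libraries. The 7 mesenchymal libraries other than the one labelled medial nasal prominence ran from 0.50 to 1.04, 5 of them at the floor, and the library with that label was at 3.97. All 6 neural libraries therefore lay above those 7 without overlap, and the share of all genes that do so is not given here. The identifier ENSMUSG00000021047 gave 1.28 to 5.57 in neural libraries, 0.54 to 1.38 in the same 7 mesenchymal libraries and 3.39 in the one labelled medial nasal prominence.

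In the fit of all 16 libraries with stage as a covariate, these 2 Nova1 rows were the only members to pass, higher in neural than in mesenchymal libraries by 2.13 ± 0.42 (SE; adjusted p = 0.0231) for ENSMUSG00000053548 and by 1.75 ± 0.35 (adjusted p = 0.0255) for ENSMUSG00000021047 with limma. That is 2 of 111 members tested, where 0.747% of 12851 genes passed as higher in neural libraries. On the values as deposited neither row passed (adjusted p = 0.0616 and 0.0673). Leaving out E8.5 mesoderm, E10.5 lateral nasal prominence, E10.5 mandibular arch, E10.5 lateral prominence neural epithelium or the library titled central, one at a time, also left 0 members past the threshold, with the highest adjusted p of the 2 rows at 0.102. The share of all genes past it in those fits is not given here.

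Without the library labelled medial nasal prominence, 6 members were higher in neural libraries and 6 were lower, of 109 tested, where 2.92% of 12681 genes were higher and 3.51% lower. Of the 12, 9 belonged to the tissue-restricted list, of which 18 genes could be tested. That list was written with earlier results of these data known, so nothing is read from this share. The lists of SR proteins, other Rbm genes and broad regulators had 0 genes past the threshold in that fit, the hnRNP list had 2 of 23 and the core list 1 of 18. The plot of neural minus mesenchymal differences by role shows the spread of each list. On the values as deposited, without the same library, 6 members were higher and 4 lower, against 3.12% and 1.39% of all genes.

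**Figure D2:**
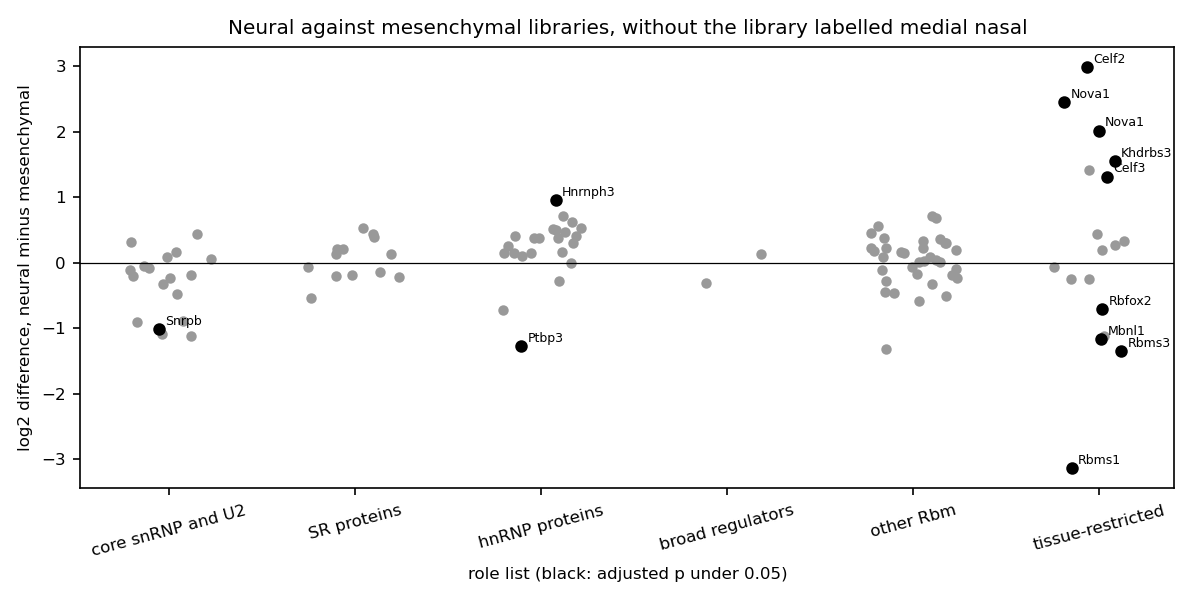
Log2 difference between neural and mesenchymal libraries (vertical axis) for each member tested, by role list (horizontal axis, points spread sideways for visibility), fitted without the library labelled medial nasal prominence; black points had an adjusted p under 0.05 and are named. The tissue-restricted list ran from -3.14 for Rbms1 to 2.99 for Celf2, and the other lists stayed between -1.31 and 0.95.

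On the neural side, Celf2, a CUG-binding regulator of splicing and mRNA stability, had the largest difference. Its relative level was 0.96 to 2.05 in the 6 neural libraries and 0.12 to 0.39 in the 7 mesenchymal libraries, and 2.96 in the one labelled medial nasal prominence. Without that library the difference was 2.99 ± 0.55 (adjusted p = 0.0049, limma), and with it 2.36 ± 0.72 (adjusted p = 0.108). Both surface libraries were near the median gene, at 1.01 and 1.02.

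Khdrbs3, a neural relative of the signalling-linked splicing factor Sam68, was at 2.52, 2.04 and 1.33 in the E10.5 neural libraries and at 0.71 to 0.92 in the E8.5 ones. The 7 mesenchymal libraries ran from 0.31 to 1.01, which overlaps the E8.5 neural range. Epidermal ectoderm, at 3.33, was the highest of all 16 libraries. Khdrbs3 was higher in neural than mesenchymal libraries by 1.55 ± 0.30 (adjusted p = 0.0062) without the library labelled medial nasal prominence (adjusted p = 0.116 with it).

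Celf3, a brain-enriched Celf gene, was above its floor in all 6 neural libraries and at it in the 7 mesenchymal ones. Its deposited ratio was 1.25 to 1.53 in the E8.5 neural libraries, then 1.79, 2.91 and 6.26 in the E10.5 lateral prominence, titled central and titled dorsal control libraries. The library labelled medial nasal prominence had 19.4 and the olfactory pit 4.42. The fitted neural difference of 1.32 ± 0.34 (adjusted p = 0.0324 without the library labelled medial nasal prominence) rests on values at the floor and is no measure of size. In that fit Celf3 met the filter on low values only through libraries outside the mesenchymal class. Its direction was therefore largely set by the filter, and nothing is read from its call.

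Hnrnph3, an hnRNP H relative that binds runs of G, was the 1 hnRNP gene higher in neural libraries. It was at 0.87 in floor plate and 1.36 to 2.46 in the other 5 neural libraries, and at 0.78 to 0.99 in the 7 mesenchymal ones, so only floor plate fell inside the mesenchymal range. The difference was 0.95 ± 0.21 (adjusted p = 0.0135 without the library labelled medial nasal prominence, 0.142 with it).

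On the mesenchymal side Rbms1, a single-stranded nucleic acid binding protein, mirrored Nova1. Its relative level was 0.98 to 2.82 in the 7 mesenchymal libraries and 1.10 and 1.23 in the surface libraries. E8.5 neural libraries had 0.64, 0.67 and 0.35, and the E10.5 neural libraries 0.12 (lateral prominence), 0.26 (titled central) and 0.080 (titled dorsal control). The library labelled medial nasal prominence was at 0.12, within the E10.5 neural range. The neural minus mesenchymal difference was -3.14 ± 0.43 (adjusted p = 0.0005) without that library and -2.55 ± 0.70 (adjusted p = 0.0750) with it.

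The related Rbms3 was at 1.12 to 2.72 in the 7 mesenchymal libraries and at its floor in the 3 E10.5 neural libraries, both surface libraries and the library labelled medial nasal prominence. The E8.5 neural libraries, at 0.90 to 1.47, overlapped the lower end of the mesenchymal range. Mbnl1, the muscleblind regulator that drives differentiated splicing patterns in muscle and other tissues, was at 0.33 to 0.56 in E8.5 neural libraries, 0.65 to 1.31 in E10.5 neural libraries, 0.73 in E8.5 mesoderm and 1.76 to 3.12 in the other 6 mesenchymal libraries. Without the library labelled medial nasal prominence Rbms3 was lower in neural libraries by a log2 difference of -1.35 (adjusted p = 0.0059) and Mbnl1 by -1.17 (adjusted p = 0.0087).

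Ptbp3, the third polypyrimidine tract binding protein, did not overlap between classes once that library was set aside, a trait whose share over all genes is not given here. It was at 0.59 to 0.86 in all 6 neural libraries, at 0.60 in the one labelled medial nasal prominence, and at 1.42 to 2.89 in the other 7 mesenchymal libraries and 1.26 and 1.95 in the surface libraries. Rbfox2, the broadly made member of the Rbfox splicing family, differed less, with a median of 0.75 (0.59 to 1.06) in neural and 1.28 in the 7 mesenchymal libraries, whose lowest was 1.06. Ptbp3 was lower in neural libraries by a log2 difference of -1.27 ± 0.22 (adjusted p = 0.0028) and Rbfox2 by -0.71 ± 0.19 (adjusted p = 0.0426), both without the library labelled medial nasal prominence. Mbnl2, at 0.16 to 1.36 in neural and 0.85 to 1.59 in mesenchymal libraries, gave a difference of -1.12 that did not pass (adjusted p = 0.104).

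Other cell types moved with the same classes. Erythroid markers had a log2 mean of -1.22 to 3.80 in the 7 mesenchymal libraries and -3.15 to -0.51 in the neural ones, and endothelial markers 0.92 to 2.32 against -0.61 to 0.12. Their part in the values of Rbms1, Rbms3, Mbnl1 and Ptbp3 was not tested.

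The start sites of Nova1 and Rbms1, the genes of the 2 opposite patterns, are shown as RefSeq gives them on GRCm38.p6, from 250 bases before to 50 bases after the start. Capitals mark CAGCTG, an E-box core recognised by basic helix-loop-helix factors, and GGGCGG, the GC box, on either strand and with overlapping matches counted. The windows are chr12:46818718-46819017 (minus strand) for Nova1 and chr2:60963155-60963454 (minus strand) for the first of 2 Rbms1 starts.
Nova1: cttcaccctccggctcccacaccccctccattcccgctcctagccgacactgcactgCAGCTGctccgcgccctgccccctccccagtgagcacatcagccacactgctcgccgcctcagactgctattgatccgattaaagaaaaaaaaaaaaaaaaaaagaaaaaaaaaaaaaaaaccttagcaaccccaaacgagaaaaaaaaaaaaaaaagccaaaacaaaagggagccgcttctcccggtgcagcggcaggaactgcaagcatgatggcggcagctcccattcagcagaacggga
Rbms1: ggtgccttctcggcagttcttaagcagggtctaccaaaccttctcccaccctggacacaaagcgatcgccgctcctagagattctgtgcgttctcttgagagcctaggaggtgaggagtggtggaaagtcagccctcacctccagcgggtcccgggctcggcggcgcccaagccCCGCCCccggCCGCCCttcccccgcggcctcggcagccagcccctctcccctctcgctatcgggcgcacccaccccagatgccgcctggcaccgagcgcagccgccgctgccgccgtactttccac
The Nova1 window held 1 CAGCTG and 0 GGGCGG, and the first Rbms1 window 0 and 2. The window of the second Rbms1 start, which is not shown, held 0 and 6. Among all 32851 windows of this length 16.3% held CAGCTG and 35.7% held GGGCGG. Windows were found for 90 of the 110 member symbols, and 10.7% of the 131 member windows held CAGCTG and 56.5% held GGGCGG.

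Several restricted genes were above their floor in few libraries. For those at the floor in 10 or more libraries a deposited ratio of 1 is the floor itself, and the values that follow are deposited ratios. Celf5 was at 4.73 in the library titled dorsal control and 3.69 in the one labelled medial nasal prominence, and at most 1.04 in the other 14. Celf4 was at 4.71 in the library labelled medial nasal prominence, 2.28 in the lateral prominence and 1.73 in the library titled central, and at most 1.08 elsewhere. Nova2, the second Nova gene, reached 3.63 in the library labelled medial nasal prominence and at most 1.07 in any other. Rbfox3, known as the neuronal nuclear antigen NeuN, was above its floor in 4 libraries, at 2.57 in caudal brain, 2.38 in floor plate, 2.05 in the library titled central and 1.76 in the one labelled medial nasal prominence.

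The neuron markers had a log2 mean of 2.26 in the library labelled medial nasal prominence and 1.20 to 1.74 in the E10.5 neural libraries, against -0.23 to 0.29 in the E8.5 neural ones. The olfactory pit had the highest neuron marker mean, 2.96, with deposited ratios of 4.42 for Celf3 and 1.08 for Celf4 and with Celf5 and Nova2 at the floor. The part of neurons in the levels of the Celf and Nova2 genes was not tested.

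Rbm47, an epithelial RNA-binding protein, was above the floor only in the 2 surface libraries, with deposited ratios of 1.71 in epidermal ectoderm and 2.28 in the olfactory pit. Rbm24, a regulator best known from muscle, was at 4.20 in the olfactory pit, 2.18 in the library labelled medial nasal prominence, 1.94 in epidermal ectoderm and at most 1.61 elsewhere. No member passed in the comparison of surface with mesenchymal libraries from the fit of 16 libraries (7 of 111 had an unadjusted limma p under 0.05), where 1.21% of 12851 genes passed. Rbm24 was closest, at a log2 difference of 1.11 (adjusted p = 0.0943).

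Without the library labelled medial nasal prominence 2 members were higher and 2 lower in surface libraries, where 1.86% of 12681 genes were higher and 1.09% lower. Khdrbs3 was higher by 1.98 ± 0.37 (adjusted p = 0.0088, limma) and Rbm24 by 1.15 ± 0.28 (adjusted p = 0.0396). Rbms3 gave a difference of -1.65 (adjusted p = 0.0114) and Mbnl1 of -1.26 (adjusted p = 0.0322). Rbms3 was at its floor in both surface libraries and Rbm24 in 10 of the 16 libraries, so their sizes depend on the floor. On the values as deposited, again without that library, which moved the median of all genes in this contrast from -0.04 to 0.32, those 2 higher and 0 lower members passed, against 4.24% and 0.607% of all genes.

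Rbm20, the regulator of titin splicing in heart muscle, was clearly above its floor only in the E9.5 mandibular arch (deposited ratio 3.05) and maxillary arch (1.53). Mbnl3 was highest in the E9.5 maxillary arch, epidermal ectoderm and E9.5 mandibular arch, at relative levels of 3.47, 3.15 and 2.95, and at or below 1.99 elsewhere. Muscle and heart markers had their highest mesenchymal mean, 1.40, in the E9.5 mandibular arch, and their part in the level of Rbm20 was not tested.

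Between stages 2 polypyrimidine tract binding proteins changed in opposite directions. Ptbp1 represses many neuronal exons and is made in most dividing cells, and Ptbp2 takes its place as neurons form. Ptbp1 protein is known to cause skipping of a short Ptbp2 exon, which leaves a transcript that is degraded. That 34-base exon lies at chr3:119724612-119724645 on the minus strand of GRCm38 and is part of 3 of 13 annotated Ptbp2 transcripts. It is shown with the 1 TCTT, a short pyrimidine element of the kind Ptbp1 binds, in capitals.
Ptbp2 exon: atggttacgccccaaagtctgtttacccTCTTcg
Gene-level values as deposited do not show whether it was spliced in.

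Relative levels of Ptbp1 were 1.10, 1.05 and 0.97 in E8.5 caudal brain, floor plate and non-floor plate, and 0.49, 0.51 and 0.60 in the E10.5 lateral prominence, titled central and titled dorsal control libraries. Those of Ptbp2 were 0.86, 0.87 and 0.71 and then 2.51, 2.44 and 1.52. Neither gene overlapped between the stages, and the share of all genes without such overlap is not given here. In neural epithelium Ptbp2 rose by 1.38 ± 0.28 (2.60-fold, adjusted p = 0.0159) and Ptbp1 fell, by a log2 difference of -0.96 ± 0.22 (adjusted p = 0.0231), with limma on 3 against 3 libraries. Both still passed on the values as deposited and with centring by transcript length. With quantile normalization Ptbp1 did not pass (adjusted p = 0.0590). Leaving out caudal brain gave an adjusted p of 0.0968 for Ptbp1 and 0.0551 for Ptbp2, and leaving out non-floor plate gave 0.0679 and 0.0606.

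The ratio of the deposited Ptbp2 to Ptbp1 values, in which any factor common to a library cancels, was 0.78, 0.83 and 0.73 in those E8.5 neural libraries and 5.07, 4.75 and 2.52 in those of E10.5. It was not high in neural tissue alone. In the E10.5 lateral nasal prominence, mandibular arch and maxillary arch it was 2.47, 2.08 and 2.68, with 2.48 for the library labelled medial nasal prominence, and in all other libraries, the E10.5 olfactory pit included, 0.60 to 0.84. The 6 E10.5 libraries with most genes at the floor are among the 7 with a high ratio, and that part was not tested. The bar plot of the 3 Ptbp genes shows each library.

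**Figure D3:**
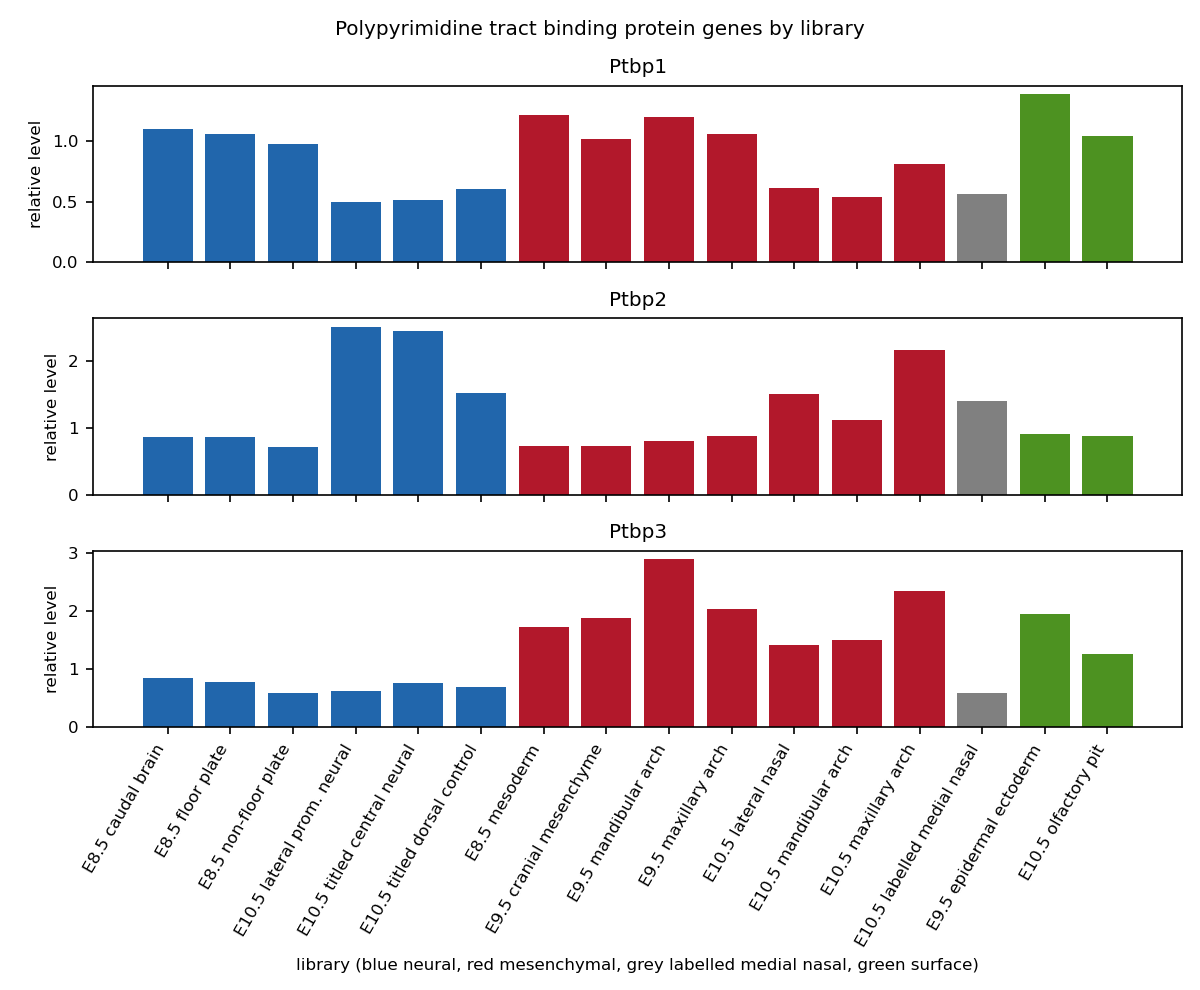
Relative level (vertical axes, linear from 0, 1 being the median gene of the library) of Ptbp1, Ptbp2 and Ptbp3 in each of the 16 libraries (horizontal axis), coloured by class, with 1 bar per library and no error. Ptbp1 was at 0.49 to 0.60 and Ptbp2 at 1.52 to 2.51 in the E10.5 neural libraries, and Ptbp3 stayed at or below 0.86 in all 6 neural libraries.

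The RefSeq start windows of this pair differ in base composition, and are shown with the same motifs in capitals as for Nova1. They lie at chr10:79854182-79854481 (plus strand) for Ptbp1 and chr3:119783339-119783638 (minus strand) for Ptbp2.
Ptbp1: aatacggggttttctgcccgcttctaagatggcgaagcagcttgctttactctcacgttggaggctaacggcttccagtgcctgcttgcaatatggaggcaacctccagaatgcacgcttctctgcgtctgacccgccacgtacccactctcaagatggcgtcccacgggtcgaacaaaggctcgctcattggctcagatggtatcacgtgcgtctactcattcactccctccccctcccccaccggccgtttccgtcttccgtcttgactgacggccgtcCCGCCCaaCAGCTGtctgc
Ptbp2: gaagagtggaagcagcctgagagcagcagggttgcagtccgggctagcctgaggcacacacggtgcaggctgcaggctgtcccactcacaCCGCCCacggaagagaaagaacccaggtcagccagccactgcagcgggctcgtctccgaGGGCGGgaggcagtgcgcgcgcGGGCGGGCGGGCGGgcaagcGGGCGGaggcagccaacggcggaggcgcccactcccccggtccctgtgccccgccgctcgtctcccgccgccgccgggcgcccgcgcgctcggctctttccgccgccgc
The Ptbp1 window was 58.3% G and C with 1 match to each motif, and the Ptbp2 window 74.7% with 6 overlapping or separate matches to GGGCGG and 0 to CAGCTG.

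Altogether 13 of 106 members changed between E8.5 and E10.5 neural epithelium, 5 up and 8 down, where 7.78% of 10466 genes rose and 11.6% fell. By role, 3 tissue-restricted genes rose and 1 fell of 17 tested, 0 core genes rose and 5 fell of 18, 1 SR gene rose of 13, 1 hnRNP gene rose and 1 fell of 22, and 1 other Rbm gene fell of 34. The list medians were 0.71 for tissue-restricted genes and -0.52 for core genes, against -0.04 over all genes tested. These lists were written with earlier results of these data known, so nothing about a list is read from its count or median. On the values as deposited, where the median of all genes was -0.35, 3 members rose and 15 fell, against 3.44% and 19.3% of all genes. Leaving out caudal brain left 0 up and 1 down (Snrpd2), non-floor plate 2 and 1, the library titled central 3 and 2, and the lateral prominence 3 and 4. The shares of all genes in those smaller fits are not given here, so a loss of calls particular to the members cannot be read from them.

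Core snRNP genes made up most of the falls. Snrpd2, an Sm ring subunit, was at 1.34, 1.23 and 2.32 in E8.5 caudal brain, floor plate and non-floor plate and at 0.50, 0.24 and 0.40 in the E10.5 lateral prominence, titled central and titled dorsal control libraries. It fell by a log2 difference of -2.11 ± 0.37 (adjusted p = 0.0101, limma). Snrpb, the Sm B subunit, went from 0.73 to 1.40 at E8.5 to 0.31 to 0.44 at E10.5, a difference of -1.41 (adjusted p = 0.0217). Sf3b5, a small subunit of the U2 SF3B complex, went from 0.99 to 1.56 to 0.23 to 0.51, a difference of -1.69 (adjusted p = 0.0187). Ranges at the 2 stages did not overlap for these genes. They were named because they passed, so this adds no separate support, and the share of all genes without overlap is not given here. The larger U2 subunits Sf3b1 and Sf3b2 gave -0.07 and 0.01 and did not pass.

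Snrpd1 and Snrpg, further Sm subunits with longest annotated transcripts of 858 and 1055 nucleotides, gave log2 differences of -1.29 and -1.34 (adjusted p = 0.0218 and 0.0283). When each library was centred within bins of transcript length, an alternative chosen after the data were seen, these 2 gave -0.43 and -0.46 and no longer passed (adjusted p = 0.226 and 0.284). Snrpd2, Snrpb and Sf3b5 still passed, at -1.77, -1.07 and -1.63, and Snrpc, which recognises the 5′ splice site in the U1 particle, came to pass at -1.41 (adjusted p = 0.0465). In total 4 members rose and 7 fell under that centring, against 7.92% and 8.72% of all genes. The part of the low values of short genes in the remaining falls was not tested beyond this. The bins used the longest annotated transcript of a gene, 3841 nucleotides for Sf3b5 and 6107 for Snrpc. The transcripts made in these tissues may be shorter, which was not tested.

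**Figure D4:**
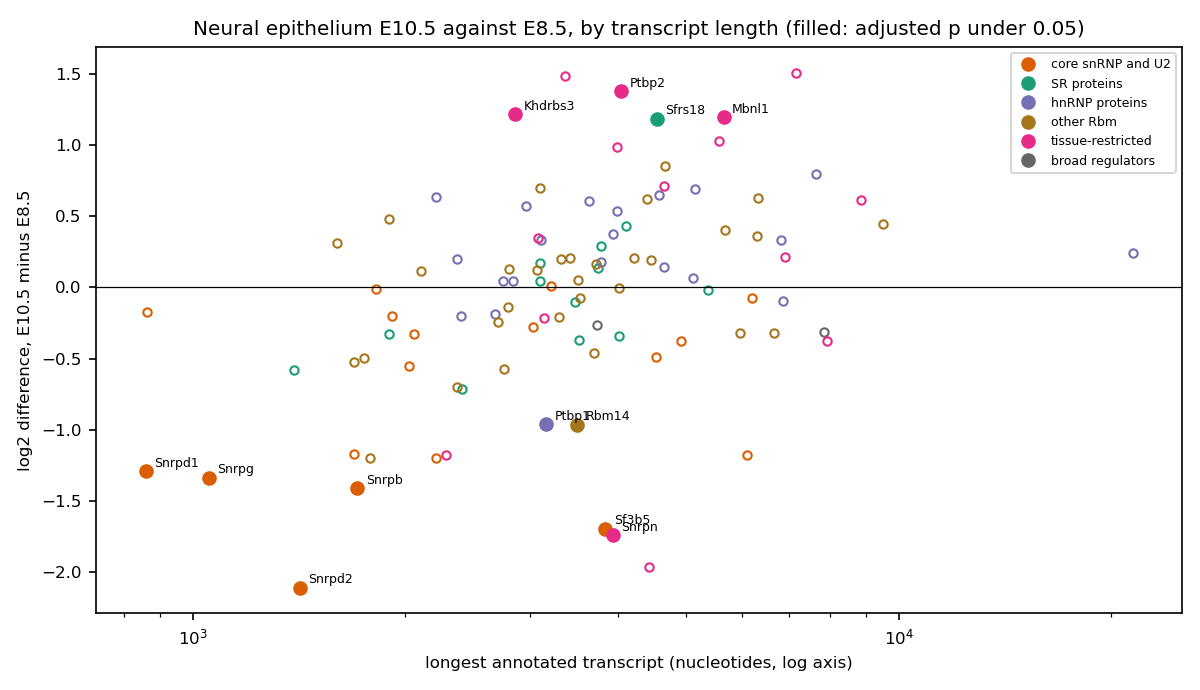
Log2 difference between E10.5 and E8.5 neural epithelium (vertical axis) against the longest annotated transcript in nucleotides (horizontal log axis) for each member tested with a known length, coloured by role; filled points had an adjusted p under 0.05. Of the 8 falls Snrpd1, Snrpg, Snrpd2 and Snrpb lie at the short end of the axis. Sf3b5, Snrpn, Rbm14 and Ptbp1 lie further along it, as do the rises of Ptbp2, Mbnl1, Khdrbs3 and Sfrs18. The transcripts made in these tissues may be shorter than the longest annotated one.

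The core genes did not move as a block across the 16 libraries. Snrpg had its lowest relative level, 0.22, in E9.5 epidermal ectoderm and its highest, 2.10, in the E10.5 mandibular arch, while Snrpa, a protein of the U1 particle, had its lowest, 0.25, in that same mandibular arch and its highest, 1.82, in the E9.5 one. Sf3a2, of the U2 SF3A complex, was at 0.26 to 0.51 in 5 E10.5 libraries and 0.73 to 1.62 in the other 11. Snrpb was the only core gene with a class difference, lower in neural than mesenchymal libraries by a log2 difference of -1.02 (adjusted p = 0.0233) without the library labelled medial nasal prominence and not passing with it (adjusted p = 0.0585). The heat map of core genes by library sets these values under the short-gene measure.

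**Figure D5:**
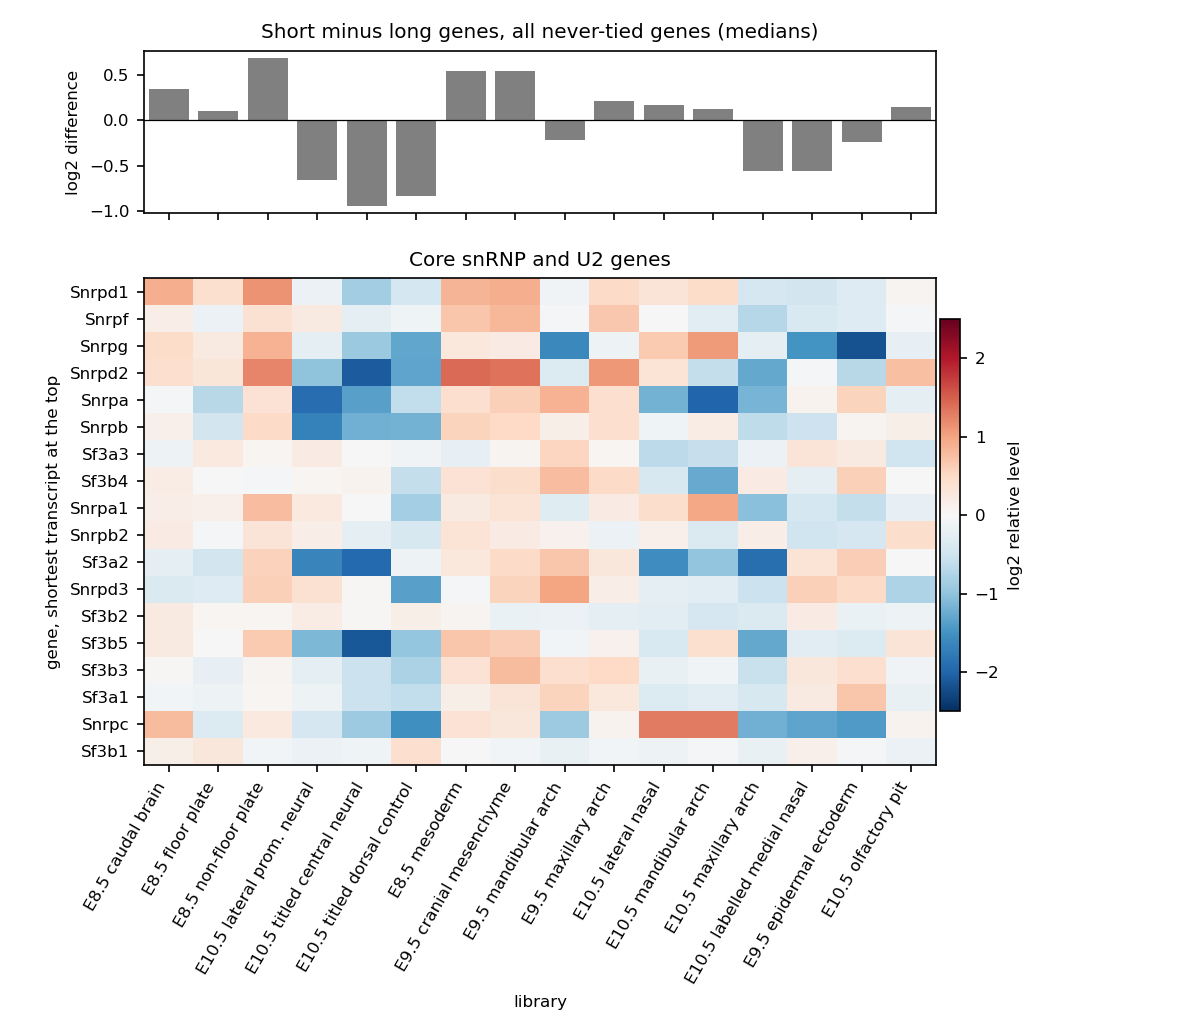
Top, median log2 relative level of genes with transcripts under 1000 nucleotides minus that of genes over 4000 nucleotides (vertical axis) in each library (horizontal axis); bottom, log2 relative level (colour) of the 18 core snRNP and U2 genes, shortest transcript at the top. Snrpd2 and Sf3b5 are lowest in the library titled central, where the short-gene measure is also lowest at -0.94, while Sf3b1 and Sf3b2 are pale throughout.

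Among tissue-restricted genes Khdrbs3 and Mbnl1 rose with stage in neural epithelium, by 1.22 ± 0.30 (adjusted p = 0.0269) and 1.20 ± 0.35 (adjusted p = 0.0470), and Mbnl1 did not pass under centring by length (adjusted p = 0.0842). Snrpn fell by a log2 difference of -1.74 ± 0.51 (adjusted p = 0.0477). Its levels were 1.49, 4.97 and 2.08 in E8.5 caudal brain, floor plate and non-floor plate, and 0.59, 0.55 and 1.27 in the E10.5 lateral prominence, titled central and titled dorsal control libraries. Floor plate was the highest of all 16, and without it the difference was -1.24 (adjusted p = 0.0897). The lowest values, 0.18 to 0.20, were in the E10.5 lateral nasal prominence and both E10.5 arches. Rbm38, a p53 target that controls mRNA stability, was likewise low in the latter 3 libraries, the E10.5 lateral prominence and the library titled central, at 0.17 to 0.37 with 3 of the 5 at the floor, and at 0.74 or more in the other 11 libraries.

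Sfrs18, the older name of the SR-related gene Pnisr, was at 0.82 to 0.88 in E8.5 and 1.68 to 2.12 in E10.5 neural libraries and rose by 1.19 ± 0.23 (adjusted p = 0.0129). The other 12 SR genes tested did not pass. They include Srsf1 (-0.02) and Tra2b, which stayed between 0.84 and 1.37 in all libraries. The SR genes with the widest spans were Srsf5 (2.03), Srsf9 (1.77), Srsf3 (1.61), Sfrs18 (1.59) and Srsf2 (1.54). Apart from Sfrs18 with stage, these did not pass in the 4 comparisons on relative levels. Srsf5 was lowest, at 0.40 to 0.58, in the E10.5 lateral nasal prominence and arches. It was higher in neural than facial libraries at E10.5 only on values as deposited without the library labelled medial nasal prominence (1.48, adjusted p = 0.0234, limma). Srsf12 was above its floor in 2 libraries only.

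Of the hnRNP genes, Hnrnpr moved on 1 of its 2 identifiers. ENSMUSG00000086084 rose from 0.51 to 0.82 at E8.5 to 1.46 to 2.36 at E10.5 (1.57 ± 0.29, adjusted p = 0.0115), with non-floor plate at the floor, whereas ENSMUSG00000066037 stayed at 1.06 to 1.51 in the 6 neural libraries. How reads were shared between the 2 was not given in the sources used here. Hnrnpa0 was at its floor in 8 libraries and highest in the E9.5 mandibular arch, at 4.58. Hnrnpul2 and Hnrnpd were highest in the library labelled medial nasal prominence, at 1.72 and 1.41, and Hnrnpf and Hnrpll spanned under 1 log2 unit.

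Of 34 other Rbm genes tested with stage, Rbm14, a paraspeckle component, fell, from 0.88 to 1.05 to 0.37 to 0.57 (log2 difference -0.96 ± 0.26, adjusted p = 0.0390). It was lowest of all in the E10.5 maxillary arch, at 0.24. The widest spans in this list were those of Rbm42 (3.14), Rbm14 (2.57), Rbmx2 (2.51), the Rbm15b row ENSMUSG00000074102 (2.47, at the floor in 7 libraries) and Rbm8a (2.37), a core part of the exon junction complex.

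At E10.5 alone, 3 neural libraries were set against the 4 nasal prominence and arch libraries. No gene at all passed with the library labelled medial nasal prominence among the latter, so the background is 0.0% of 10184 genes, and 9 of 105 members had an unadjusted limma p under 0.05. Without it, 7 members were higher and 4 lower in neural epithelium, of 104 tested, where 2.63% of 9512 genes were higher and 3.55% lower. The higher ones were Celf2 (3.63 ± 0.32, adjusted p = 0.0015), both Nova1 rows (2.71 and 2.13), Khdrbs3 (2.11), Snrpn (adjusted p = 0.0329), the Rbm15b row ENSMUSG00000045365 (1.25) and Hnrnph3 (1.11). The lower ones were Rbms1 (-3.89 ± 0.50, adjusted p = 0.0042), Mbnl1 (-1.42), Rbms3 (-1.39) and Ptbp3 (-1.32). Rbms3 was at its floor in the 3 neural libraries and met the filter on low values only through the facial ones. The Nova1 row ENSMUSG00000053548 was at its floor in the 3 facial libraries and met that filter only through the neural ones. The direction of both rows was therefore largely set by that filter, and nothing is read from their calls. On the values as deposited the split was 19 higher and 1 lower, against 10.3% and 2.0% of all genes, with the median of all genes moved from -0.04 to 0.42, so the number in each direction depends on the centring. These libraries also enter the comparison over 16 libraries, so the 2 results share samples.

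Other genes of splicing, from lists of 40 measured machinery genes and 29 measured regulators, are given for context. Of 40 machinery genes tested with stage in neural epithelium 1 rose and 6 fell, where 7.78% of all genes rose and 11.6% fell. As deposited 11 fell, against 19.3% of all genes, and with centring by transcript length 5 fell, against 8.72%. Among the falls were Lsm4 (-3.00, adjusted p = 0.0040) and Lsm7 (-2.48, adjusted p = 0.0035), both of Sm-like rings, which gave -2.12 and -1.61 with centring by length, and the U2 auxiliary factor U2af2 (-1.71, adjusted p = 0.0189). Of 26 regulators tested 6 rose and 1 fell, against 7.78% and 11.6% of all genes. On the values as deposited and with centring by length 3 rose, against 3.44% and 7.92% of all genes. Elavl4 (3.14, adjusted p = 0.0126) and Elavl3 (1.77, adjusted p = 0.0167), neuronal RNA-binding proteins that also stand in the neuron marker list, rose, as did Srrm4 (2.35, adjusted p = 0.0159), the activator of neuronal microexons. Esrp1 and Esrp2, the epithelial splicing regulators and 2 of the surface epithelium markers, were higher in surface than mesenchymal libraries by 4.46 and 3.41 (adjusted p = 0.0001 for each, limma).

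Both arches were collected at E9.5 and E10.5, with 1 library each. A fit of the 4 arch libraries with arch as a block, added after the data were seen, leaves 1 residual degree of freedom and took genes above their lowest value in at least 2 of the 4. None of the 104 members tested passed with limma (21 had an unadjusted p under 0.05), where 0.0188% of 10634 genes passed. Those with the lowest p had lower relative levels at E10.5, with log2 differences of -2.19 ± 0.42 for Rbm38 (adjusted p = 0.0789), -2.22 ± 0.48 for Snrpa (adjusted p = 0.0959), -1.92 ± 0.42 for Sf3a2 (adjusted p = 0.0967) and -2.08 ± 0.53 for Snrpn (adjusted p = 0.121). On the values as deposited, where the median of all genes was -0.98, 0 members were higher and 37 lower, against 0.639% and 21.7% of all genes, so the calls depend on the centring.

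Within each arch a difference was also counted at 2-fold or more relative to the median gene, with the higher library at 5 or more times the lowest value of the gene and no test. In the mandibular arch 2 members were higher and 16 lower at E10.5 of 28 that met that level, where 13.7% of 1975 genes were higher and 53.7% lower. In the maxillary arch 1 was higher and 19 lower of 25, where 10.4% of 2140 genes were higher and 64.7% lower. The level was met at E9.5 alone by 25 of the 28 and by 23 of the 25, and at E10.5 alone by 2 and 0, so nothing is read from the direction of these counts. With no minimum level 8 of 113 members were higher and 25 lower in the mandibular arch. Of 15876 genes 1679 were higher and 1519 lower there. In the maxillary arch 15 members were higher and 22 lower, against 6332 and 1661 of all genes. A gene at its floor in both libraries of an arch differs by the centring alone, so nothing is read from these counts either. Rbm42 was 8.26-fold higher in the E10.5 than the E9.5 mandibular arch and 1.61-fold lower in the E10.5 maxillary arch. Rbms1 was 1.98-fold higher in the former and 2.51-fold higher in the latter at E10.5.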

How the data were processed

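Total RNA was purified with a column kit and read as 50-base single-end reads at a depth above 40000000, per the labels' protocols. The submitters' processing notes name Bowtie, TopHat, TopHat2, Cufflinks and the mouse build mm9; versions, annotation and strand setting were not given in the sources used here. All deposited values are a ratio, each gene divided by its own median over the 16 libraries by the authors, as the values themselves show, so the depth behind each value is unknown and no counting interval was computed.

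Ratios were put on the log2 scale and each library was centred on its median over the 7082 genes with no shared lowest value. Tests used limma 3.58.1 in R 4.3.3, with its trend option, on genes above their lowest value in at least 3 libraries of the fit, with Benjamini-Hochberg adjustment over all genes tested, and were tested on simulated data. Labels of stage and tissue set the groups, and no library was left out of the stated comparisons except where said. Transcript lengths came from GENCODE M21 and sequences from RefSeq and GENCODE, both GRCm38. Coordinates are of that build, not mm9. Alternatives were values as deposited, quantile normalization, a pseudocount of 0.25, no filter, genes with no shared floor only, no trend, no stage covariate, an added fold of 2 or more, for the arches a fold of 3 or no minimum level and a fit with arch as a block, single libraries left out and centring by transcript length.

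Named genes are the whole tissue-restricted list, the other members called in any of the 4 tests, and the 5 widest and 3 narrowest spans of each role list. The members and lists were chosen with earlier results of these data known.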

Additional observations from a re-analysis of the deposited data

Results flagged for a closer look

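Snrpc, a protein of the U1 particle, moved in opposite directions in the 2 facial arches between E9.5 and E10.5. Relative to the median gene its log2 difference was 2.19 in the mandibular arch, from 0.54 to 2.44, and -1.27 in the maxillary arch, from 1.06 to 0.44. The difference was not tested, since each arch has 1 library a stage. The E10.5 lateral nasal prominence, at 2.48, was as high as the mandibular arch.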

How the results depend on the processing

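Regions carry no replicate pairs, and pairing was possible only for stage within the 2 arches. With arch as a replicate block 0 members passed, as also with no replicate block and with length centring under the block, and 37 passed under the block on values as deposited. Counts of members past the threshold are given as all directions together. Outside the arches, shares over all genes are not given beyond those stated above, so nothing about the members is read from a change in these counts. In neural against mesenchymal tissue the count was 2, with 0 on values as deposited and without the 6 E10.5 libraries of low values, and 4 without the stage covariate. It was also 0 with only genes that share no lowest value. That setting leaves out both Nova1 rows, which have a shared floor, so its 0 does not bear on them. Leaving out 1 library gave 0 to 12, the 12 without the library labelled medial nasal prominence, which combined with length centring gave 12 and with values as deposited 10. In surface against mesenchymal tissue the count was 0, with 1 (Rbm24 on values as deposited) under values as deposited, quantile normalization and no trend, 0 to 4 with 1 library left out, and, without the library labelled medial nasal prominence, 4 with length centring and 2 on values as deposited. From E8.5 to E10.5 in neural epithelium the 13 became 1 to 17 with 1 library left out. At E10.5 the neural and facial count of 0 became 0 to 11 with 1 library left out, and, without the library labelled medial nasal prominence, 10 with length centring and 20 on values as deposited. In the mandibular arch, lower members numbered 8 at 3-fold and 25 with no minimum level, and higher ones 8 with no minimum level. Among all genes those counts were 622 of 1975, 1519 of 15876 and 1679 of 15876. In the maxillary arch, higher members numbered 0 on values as deposited and at 3-fold and 15 with no minimum level, and lower ones 9 at 3-fold. Among all genes those counts were 159 and 189 of 2140, 6332 of 15876 and, for lower genes, 735 of 2140. In the 4 tests over regions no member that passed in the reported fit or in an alternative had the opposite sign in the other, while members that did not pass could change sign. The floor limits what can be seen in low genes, and fitted differences that include floor values depend on it. The cause of these shifts was not tested.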
